A study of Rattus norvegicus with 3 samples.

Results

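Genes of respiratory complex I and its assembly were examined in ventricular myocytes of newborn rats. The genes were chosen by name, with earlier results of these data known. Every gene was taken whose probe set carried a single symbol beginning with Nduf in the array's annotation. This gave 41 genes of the 10411 named on the array, and 40 of them were measured on all 3 arrays. The remaining gene, Ndufa4l2, lay below the signal floor on each array. One array was made from cells without stimulus, another from cells given 20 µM phenylephrine, and the last from cells given 1 µM PAMH. All cells were kept in culture for 48 h, and total RNA was measured. Phenylephrine activates α1-adrenergic receptors and is widely used to make cardiac myocytes grow in culture, and PAMH is the submitters' name for the other compound, for which the labels give no structure. The labels name no strain, age in days or number of animals and cultures behind an array. The doses differed, so the responses are given side by side. With 1 array per condition there was no spread between samples, no test could be made, and no difference below has a replicate check.

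Complex I is the entry point of electrons from NADH into the respiratory chain of mitochondria. It passes them to ubiquinone and pumps protons across the inner membrane, and a heart cell draws most of its ATP from this chain. The nuclear genes named Nduf encode the catalytic core subunits of its matrix arm, the accessory subunits around them, the accessory subunits of the membrane arm, and factors that build the complex without staying in it. The mitochondrially encoded subunits were not analysed here.

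Values are probe set intensities after each array was multiplied by 1 factor that makes the medians of the arrays equal. They serve to compare the arrays for 1 gene at a time, because brightness also depends on the probes. The floor was an intensity of 76.0, and a ratio was taken only where both arrays reached it. The arrays were alike in the 3′ to 5′ signal ratio of the Gapdh control (1.01 to 1.07), while that ratio ranged from 1.44 to 1.72 for the actin control. All 9 cardiac myocyte markers on the array lay above the floor on each array. So did 9 of 10 fibroblast and matrix markers and all 6 smooth muscle markers. The 3 endothelial markers on the array (Pecam1, Kdr, Vwf), 3 of 5 macrophage markers (Cd68, Cd14, Ptprc) and the erythroid marker Hbb lay below the floor on every array.

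The pattern shared by most of these genes was an order of the arrays. The signal was highest on the PAMH array for 37 of 40 genes, against 40.6% of all 6400 genes measured on the 3 arrays. It was lowest on the unstimulated array for 34 of 40, against 48.4% of all genes. For 33 of 40 it went from unstimulated through phenylephrine to PAMH, against 27.5% of all genes. The exceptions to the first order were Ndufb2, Ndufs4 and the assembly factor Ndufaf5. Bright genes in general leaned this way: among the 640 genes in the top decile of signal, to which 31 of the 40 belonged, 61.3% were highest on the PAMH array, 79.5% were lowest on the unstimulated array and 53.3% had the full order. The orders depended on the normalization. After quantile normalization 25, 12 and 10 of the 40 genes had them, against 31.1%, 37.7% and 18.9% of all genes. After cyclic loess 27, 13 and 12 had them, against 30.6%, 37.7% and 18.5%.

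**Figure D1:**
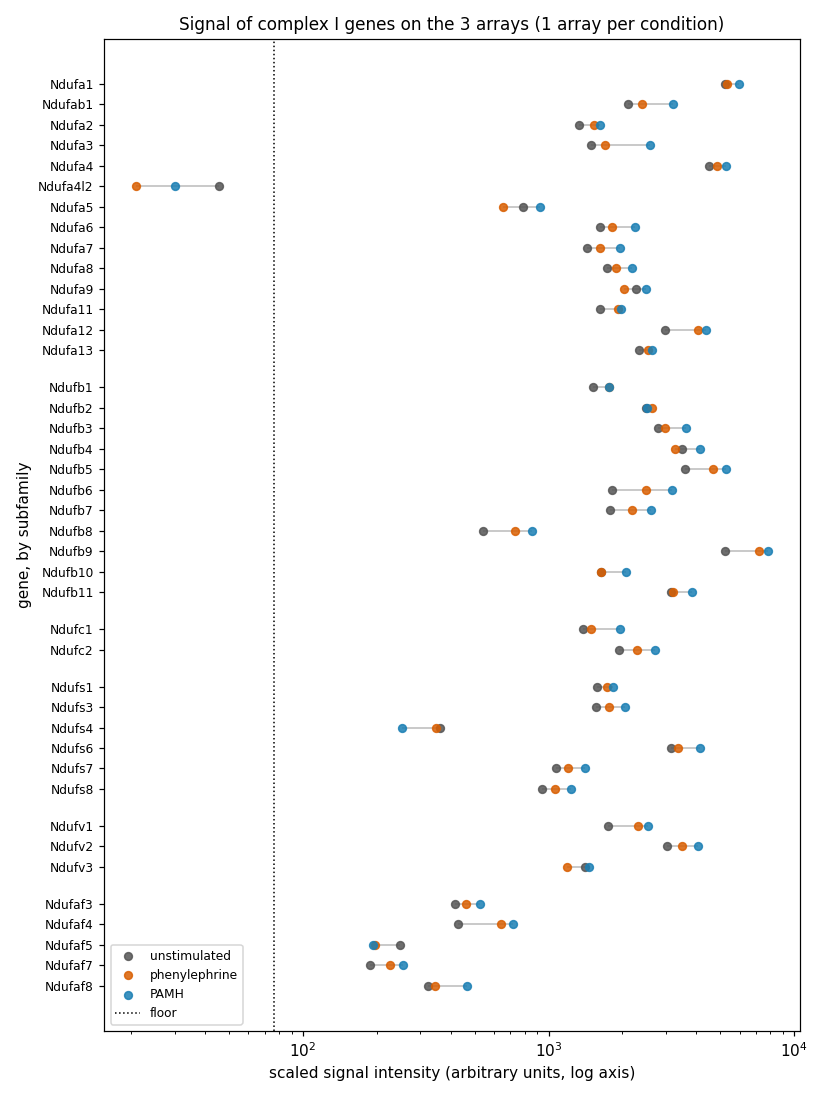
Scaled signal intensity (log axis, arbitrary units) of the 41 Nduf genes on the 3 arrays, 1 point per array, with the genes grouped by subfamily; the dotted line is the floor of 76.0. The PAMH point lies to the right of the other points for 37 of the 40 measured genes. Ndufs4 and Ndufaf5 show the opposite order, and Ndufa4l2 lies left of the floor.

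The first comparison asked how these genes differed between phenylephrine-treated and unstimulated cells. Their median log2 ratio was 0.16 (1.12-fold), with a range from -0.34 for Ndufaf5 to 0.59 for Ndufaf4. The median of all 6571 genes measured on both arrays was 0.07, and that of genes in the top decile of signal was 0.24. Of the 40 genes, 34 had a ratio above 1, against 57.6% of all genes. Within the top decile of signal 28 of 31 of these genes had one, against 82.3% of the 640 genes there. A single one of the 40, Ndufaf4, was at least 1.5-fold higher, against 8.90% of all genes and 17.5% of the top decile. None was at least 1.5-fold lower, against 4.54% of all genes and 1.25% of the top decile. Only 13 of 40 lay above the median of genes in their own decile of signal. After quantile normalization the median of the 40 turned to -0.08, and after cyclic loess, which removes the dependence of the ratio on signal, to -0.05. In those settings 12 and 14 of the 40 had a ratio above 1, against 48.0% and 49.1% of all genes. The direction of the group with phenylephrine was therefore not settled. As a technical yardstick, probe sets of the same gene differed in this log2 ratio with an SD of 0.27 over 864 genes, and 29 of the 40 ratios lay within that distance of 0.

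The question was next put to PAMH and the unstimulated cells. The median log2 ratio was 0.39 (1.31-fold), from -0.51 for Ndufs4 to 0.81 for Ndufa3. All 6549 genes measured had a median of 0.10, and the top decile of signal had 0.32. A ratio above 1 was found for 38 of 40, against 61.1% of all genes, the others being Ndufs4 and Ndufaf5. Within the top decile of signal it was found for 31 of 31 of these genes, against 87.5% of the 640 genes there. At least 1.5-fold higher were Ndufa3, Ndufb6, Ndufaf4, Ndufb8 and Ndufab1, which is 5 of 40 or 12.5%, against 9.31% of all genes and 20.9% of the top decile. None was at least 1.5-fold lower, against 4.17% of all genes and 0.938% of the top decile. The median became 0.09 after both quantile normalization and cyclic loess. In those settings 27 and 28 of the 40 were above 1, against 49.7% of all genes in each. Ndufaf4 alone then stayed at least 1.5-fold higher. Within the yardstick, 0.29 over 867 genes here, lay 12 of the 40 ratios.

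**Figure D2:**
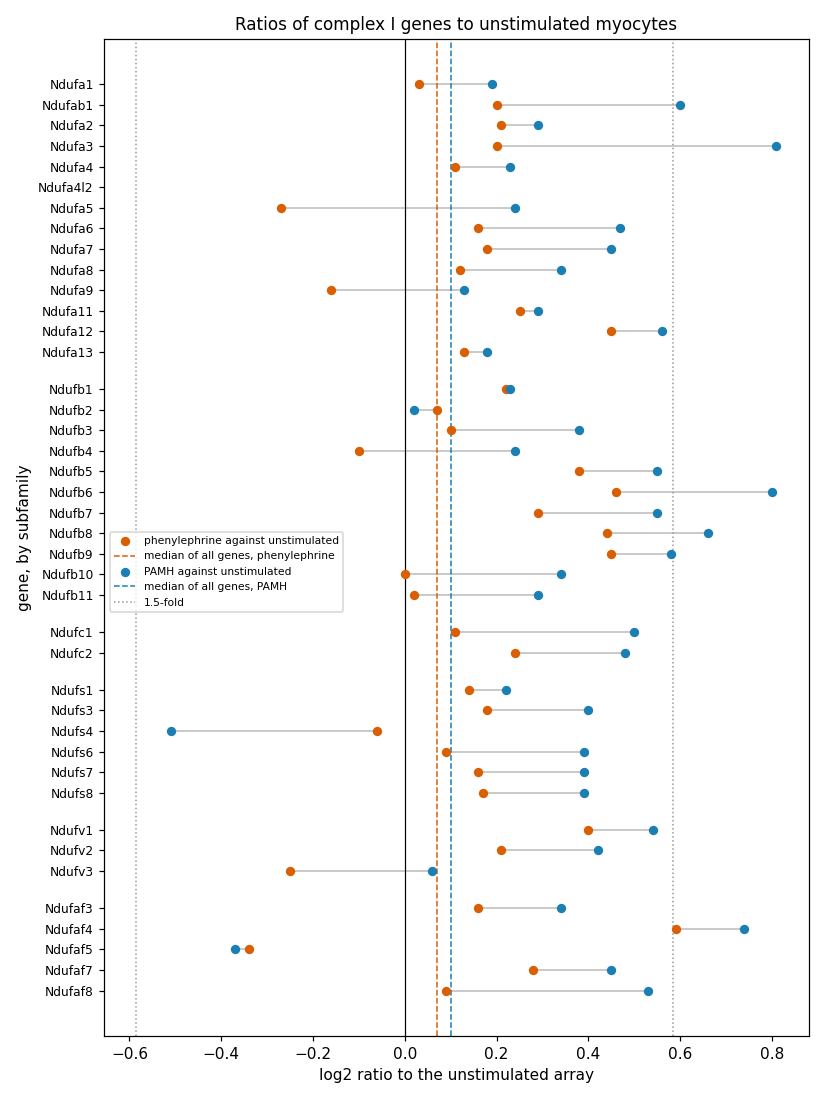
Log2 ratio to the unstimulated array for each Nduf gene with phenylephrine (orange) and with PAMH (blue); dashed lines are the medians of all genes (0.07 and 0.10) and dotted lines mark 1.5-fold. For most genes the blue point lies to the right of the orange one, with Ndufs4 furthest to the left at -0.51; both ratios share the unstimulated array.

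The third comparison set the PAMH array against the phenylephrine array and so did not use the unstimulated cells. The median log2 ratio of the 40 genes was 0.22 (1.16-fold), while that of all 6593 genes was 0.04 and that of the top decile of signal 0.08. A ratio above 1 was found for 37 of 40, against 56.7% of all genes. Within the top decile of signal it was found for 30 of 31 of these genes, against 67.0% of the 640 genes there. The median lay between 0.16 and 0.23 under all 11 processing alternatives. Under quantile normalization and cyclic loess 34 of 40 were above 1, with 52.3% and 50.5% of all genes. Ndufa3 was the only one at least 1.5-fold higher, against 1.93% of all genes and 0.625% of the top decile. None was at least 1.5-fold lower, against 2.67% of all genes and 0.781% of the top decile. The yardstick was 0.23 over 866 genes, and 21 of the 40 ratios lay within it. For single genes the differences were therefore about as large as those between probe sets.

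**Figure D3:**
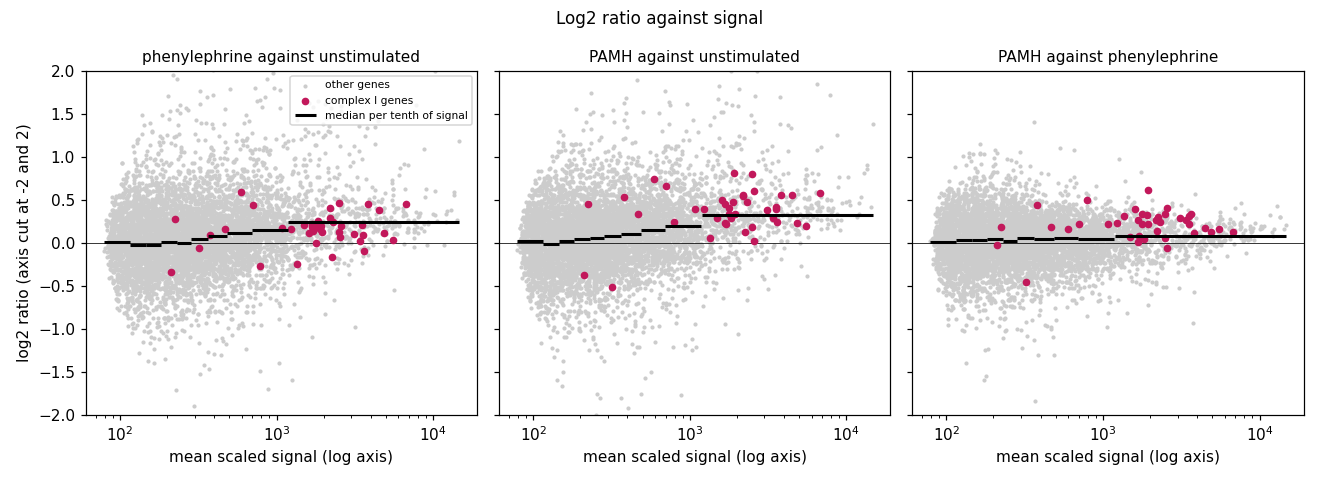
Log2 ratio of each gene against its mean scaled signal (log axis) in the 3 comparisons, with Nduf genes in red, other genes in grey and black bars for the median of each decile of signal; the vertical axis is cut at -2 and 2. In the brightest decile the bars stand at 0.24, 0.32 and 0.08, and the Nduf genes there have medians of 0.16, 0.39 and 0.23. They lie mostly below the bar in the first panel, around it in the second and mostly above it in the third.

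The electron path begins at the core subunits of the matrix arm, of which 6 were measured. All 6 went from unstimulated through phenylephrine to PAMH, against 27.5% of all genes and 53.3% of the top decile of signal. Ndufv1, which binds the flavin that takes electrons from NADH, had signals of 1751, 2308 and 2538 on the unstimulated, phenylephrine and PAMH arrays, in the order used from here on. Its partner Ndufv2, an iron-sulfur protein, had 3028, 3501 and 4063. The largest iron-sulfur subunit, Ndufs1, had 1571, 1730 and 1825. With phenylephrine the log2 ratio of Ndufv1 was 0.40, that of Ndufv2 0.21 and that of Ndufs1 0.14, and the first of these alone was larger than the yardstick of 0.27.

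The remaining core subunits lead electrons to ubiquinone. Ndufs3 had signals of 1554, 1760 and 2051. Ndufs7, which carries the last iron-sulfur cluster before ubiquinone, had 1076, 1201 and 1411. Ndufs8, another iron-sulfur protein, had 939, 1059 and 1230. These 3 subunits kept close together, with log2 ratios of 0.16 to 0.18 with phenylephrine and 0.39 to 0.40 with PAMH. Over the 6 core subunits the median was 0.18 and 0.40 in those comparisons and 0.22 for PAMH against phenylephrine. After quantile normalization the first of these was -0.04 and the second 0.12, whereas the last stayed between 0.14 and 0.22 in all settings run.

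Like the assembly factor Ndufaf5, Ndufs4 had the reverse order of the arrays. This accessory subunit sits where the NADH-oxidizing module joins the rest of the matrix arm, and its loss is a known cause of complex I deficiency. Its signals were 361, 347 and 254, so that the PAMH array was the lowest. The log2 ratio was -0.06 with phenylephrine, -0.51 with PAMH (1.42-fold lower) and -0.45 for PAMH against phenylephrine (1.36-fold lower). Genes of like signal had medians of 0.04, 0.08 and 0.05. The ratio of PAMH to unstimulated stayed between -0.66 and -0.43 over the settings run, and it passed 1.5-fold on the deposited intensities. A single probe set stood for Ndufs4, so the value could not be set beside another from these arrays.

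Its neighbours in the same module did not share that pattern. Ndufs6, a zinc-binding subunit, had signals of 3160, 3354 and 4148. Ndufa12, which takes the place of an assembly factor late in the building of this module, had 2993, 4074 and 4398. For both, the PAMH array was highest, and Ndufa12 had the highest Ndufa ratio with phenylephrine, at 0.45. Ndufa2 had log2 ratios of 0.21 with phenylephrine and 0.29 with PAMH. The flavoprotein accessory subunit Ndufv3 had 1411, 1186 and 1466, with phenylephrine lowest and the other arrays nearly level. A further probe set of Ndufv3 lay below the floor on all arrays, at 45.4, 42.5 and 38.7, and gave no ratio. Over the 8 genes of the NADH-oxidizing module the median for PAMH against phenylephrine was 0.12, the lowest of the 4 structural modules.

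Accessory subunits of the ubiquinone-reducing module included some where phenylephrine was lowest. Ndufa5 had signals of 786, 653 and 925, a log2 ratio of -0.27 with phenylephrine and 0.50 for PAMH against phenylephrine. Ndufa9, which belongs to the short-chain dehydrogenase family and binds NADPH, had 2263, 2023 and 2484. For these genes, the compounds thus lay on different sides of the unstimulated array. After quantile normalization Ndufa9 was lower with both compounds, at -0.45 with phenylephrine and -0.21 with PAMH. Ndufa6 and Ndufa7 had ratios of 0.16 and 0.18 with phenylephrine and 0.47 and 0.45 with PAMH. All 7 measured genes of this module were higher on the PAMH array than on the phenylephrine array, by a median of 0.27. The share was 56.7% of all genes and 67.0% of the top decile of signal.

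In the part of the membrane arm next to the matrix arm, Ndufa3 had the highest ratios with PAMH. Its signals were 1485, 1702 and 2601, so the unstimulated and phenylephrine arrays lay close together and the PAMH array above them. PAMH gave 1.75-fold over unstimulated and 1.53-fold over phenylephrine. These were below 1.5-fold after quantile normalization, with log2 ratios of 0.49 and 0.55, and after cyclic loess, with 0.52 and 0.55. Ndufc1 had 1383, 1487 and 1952, and Ndufc2 had 1937, 2289 and 2702. Both Ndufc subunits were highest with PAMH, at log2 ratios of 0.50 and 0.48. Ndufa11 had 1614, 1924 and 1973 and the smallest Ndufa ratio of PAMH to phenylephrine, 0.04. The other 3 members here, Ndufa1, Ndufa8 and Ndufa13 (also known as GRIM-19), had ratios of 0.03, 0.12 and 0.13 with phenylephrine and of 0.19, 0.34 and 0.18 with PAMH. After quantile normalization these were -0.33, -0.12 and -0.18 with phenylephrine and -0.25, 0.04 and -0.17 with PAMH.

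The Ndufb genes encode accessory subunits of the far part of the membrane arm. Ndufb6 had signals of 1817, 2501 and 3170, which is 1.38-fold higher with phenylephrine and 1.75-fold higher with PAMH. Ndufb8 had 539, 730 and 853, with log2 ratios of 0.44 and 0.66. In both, phenylephrine lay between the other arrays. Ndufab1, the mitochondrial acyl carrier protein that also sits in complex I, had 2104, 2411 and 3198, and was 1.52-fold higher with PAMH. At the other end, Ndufb2 had 2501, 2634 and 2529 and Ndufb4 had 3491, 3267 and 4129. With arrays scaled by 1 factor to equal medians, Ndufb2 was nearly level, and Ndufb4 was the one Ndufb gene lower with phenylephrine, at -0.10. After quantile normalization Ndufb2 had -0.21 with phenylephrine and -0.32 with PAMH, and further Ndufb genes were lower with phenylephrine. After quantile normalization the PAMH ratios of Ndufb6, Ndufb8 and Ndufab1 were 0.46, 0.49 and 0.25, all below 1.5-fold.

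The other Ndufb genes lay between these. Ndufb9 (0.45), Ndufb5 (0.38), Ndufb7 (0.29) and Ndufb1 (0.22) had the higher log2 ratios with phenylephrine, while Ndufb3 (0.10), Ndufb11 (0.02) and Ndufb10 (0.00) were near level. With PAMH, Ndufb9 had 0.58, just under 1.5-fold, and Ndufb5 and Ndufb7 both had 0.55. Ndufb3 had 0.38, Ndufb10 0.34, Ndufb11 0.29 and Ndufb1 0.23. After quantile normalization Ndufb3, Ndufb11 and Ndufb10 had -0.20, -0.27 and -0.24 with phenylephrine and 0.03, -0.08 and 0.06 with PAMH, so for these genes the order of the compounds stayed and the side of the unstimulated array did not. Over the 12 genes of this far part the medians were 0.21 with phenylephrine, 0.47 with PAMH and 0.26 between the compounds. After quantile normalization they were -0.05, 0.10 and 0.20.

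The assembly factors had unlike ratios. Ndufaf4, which acts together with Ndufaf3 early in the assembly of complex I, had signals of 428, 642 and 716, with both treated arrays above the unstimulated one. It was 1.5-fold higher with phenylephrine, at the threshold itself, and 1.68-fold with PAMH. With PAMH it stayed at least 1.5-fold higher under every alternative run, with log2 ratios from 0.59 to 0.74. With phenylephrine it ranged from 0.46 to 0.59. Ndufaf3 had smaller ratios in the same direction, 0.16 and 0.34.

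Ndufaf5 modifies the core subunit Ndufs7, and Ndufaf8 is needed to keep Ndufaf5 stable. These partners differed with PAMH. Ndufaf5 had signals of 248, 196 and 192, lower by log2 ratios of -0.34 and -0.37 on the treated arrays. Ndufaf8 had 324, 344 and 467, with ratios of 0.09, which was -0.04 on the deposited intensities, and 0.53, which stayed at 0.38 or above in the settings run. The negative sign of Ndufaf5 in both of these comparisons held after quantile normalization (-0.36 and -0.41) and cyclic loess (-0.35 and -0.41). Ndufaf7, a methyltransferase for a core subunit, had ratios of 0.28 and 0.45. For genes of like signal to the 5 measured assembly factors, the medians centred on 0.08 with phenylephrine and 0.10 with PAMH, and 4 of the 5 lay above their own in both.

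The set also holds genes that are not subunits of complex I in the strict sense. Ndufa4, first described in complex I, is now placed in complex IV, and was 1.08-fold higher with phenylephrine and 1.17-fold higher with PAMH. Both directions reversed after quantile normalization, with log2 ratios of -0.22 and -0.16, and after cyclic loess, with -0.20 and -0.18. Ndufa4l2, its relative known for induction in low oxygen, had signals of 45.5, 20.9 and 30.2, all below the floor, and no ratio was taken. With these and the assembly factors left out, the 34 structural subunits had medians of 0.17 with phenylephrine, 0.39 with PAMH and 0.23 between the compounds.

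The other respiratory complexes are given here by median log2 ratio with phenylephrine, with PAMH and for PAMH against phenylephrine. Complex II, succinate dehydrogenase, had 0.22, 0.31 and 0.09 over 4 genes. Complex III had 0.40, 0.50 and 0.15 over 8 genes, and complex IV had 0.25, 0.46 and 0.16 over 14 measured genes. The complex IV list was taken by symbol and holds the pseudogene Cox6c-ps1, its 1 gene lower with PAMH than with phenylephrine. The ATP synthase had 0.20, 0.41 and 0.20 over 16 genes. Between the compounds, 3 of 4, 7 of 8, 13 of 14 and 15 of 16 of these genes were higher with PAMH. The share was 56.7% of all genes and 67.0% of the top decile of signal. No test of a difference between the complexes was possible. After quantile normalization the medians of complexes II, III, IV and the ATP synthase were -0.08, 0.09, -0.03 and -0.07 with phenylephrine and -0.05, 0.12, 0.06 and -0.03 with PAMH, so most of these directions were not settled either. Between the compounds they stayed above 0 in every setting run, from 0.01 for complex II to 0.20 for the ATP synthase.

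Outliers occurred in those complexes too. In complex IV, Cox8b, a muscle form of a small subunit, had a log2 ratio of -0.54 with PAMH, and Cox6a1 had 0.81. In complex III the ratios with PAMH ran from 0.13 for Uqcr11 to 0.63 for the core protein gene Uqcrc1, and in complex II from 0.29 for Sdhc to 0.47 for Sdhb. In the ATP synthase they ran from 0.14 for the inhibitory factor Atp5if1 to 0.75 for Atp5me. At least 1.5-fold higher with PAMH were 2 genes each of complex III and the ATP synthase, 1 of complex IV and none of complex II. The share was 9.31% of all genes and 20.9% of the top decile of signal. With PAMH 2 of 14 measured complex IV genes, Cox8b and the pseudogene Cox6c-ps1 (-0.48), were lower than on the unstimulated array. None of the other 3 complexes named here had such a gene. In this comparison 61.1% of all genes and 87.5% of the top decile of signal had a ratio above 1.

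Genes that make or feed mitochondria were examined for the same reason. The mitochondrial ribosome had medians of 0.19 with phenylephrine, 0.34 with PAMH and 0.11 between the compounds, with 7 of 70, 9 of 70 and 1 of 71 genes at least 1.5-fold higher, against 8.90%, 9.31% and 1.93% of all genes, and none lower. These shares are near those of all genes. For ribosome genes the ratios with PAMH ran from -0.27 for Mrpl1 to 0.82 for Mrpl54. Outer membrane and import genes had medians of 0.18, 0.37 and 0.25 over 9 genes, with a range from 0.14 for Vdac3 to 0.57 for the chaperonin Hspe1 with PAMH. Past the 1.5-fold mark was 1 of these 9 with phenylephrine and none with PAMH. After quantile normalization their median with phenylephrine was -0.10. Complex I assembly factors with other symbols had medians of 0.12, 0.23 and 0.07 over 9, 10 and 9 genes. With PAMH they ran from -0.20 for Dmac2 to 0.66 for Ecsit, the 1 gene of that list at least 1.5-fold higher.

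Of 12 regulators of mitochondrial biogenesis listed, 5 were on the array and 4 were measured. The other one on the array, Yy1, lay below the floor on each array, at 54.8, 42.3 and 29.6. Ppargc1a, the coactivator that drives the expression of respiratory genes, had signals of 80.4, 77.1 and 111, the lower of them close to the floor. It was highest with PAMH, at a log2 ratio of 0.47 over unstimulated, below 1.5-fold. Gabpb1, a subunit of an ETS-family factor, had 232, 203 and 229 and was level with PAMH (-0.02). The medians of the 4 genes were -0.01 with phenylephrine, 0.44 with PAMH and 0.28 between the compounds.

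**Figure D4:**
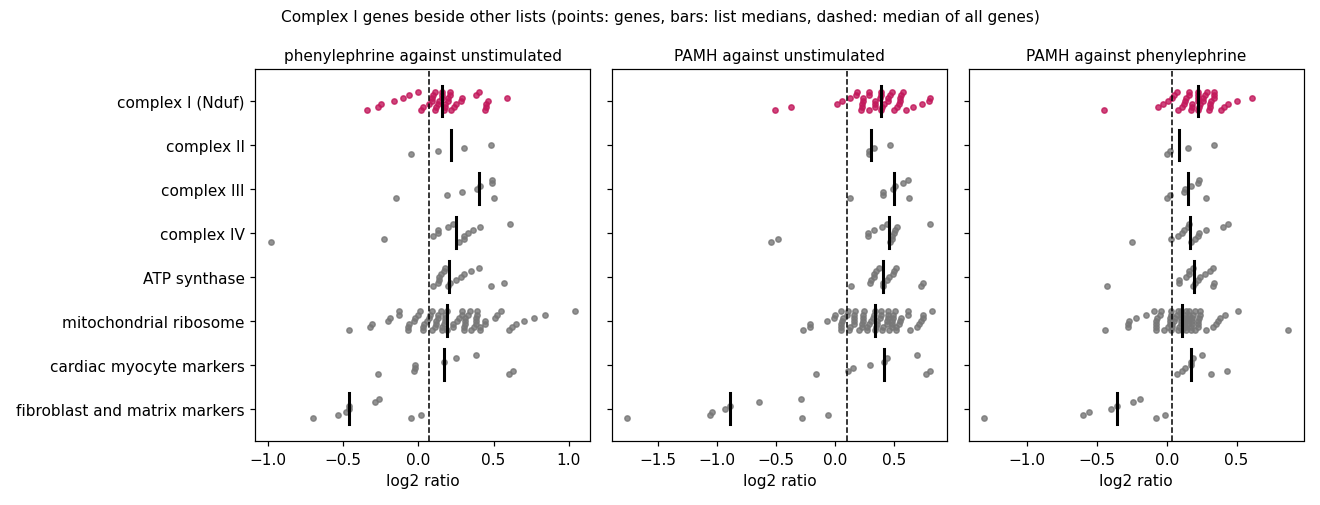
Log2 ratios of single genes (points) in the Nduf set, other respiratory complexes, the mitochondrial ribosome and markers of 2 cell types, in the 3 comparisons; black bars are list medians and the dashed line is the median of all genes. In the PAMH against phenylephrine panel the Nduf median is 0.22, that of the cardiac myocyte markers 0.17 and that of the fibroblast and matrix markers -0.36.

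Markers of cell types also differed between the arrays, and not all in the same direction. The summed signal of the 9 cardiac myocyte markers was 59374, 69985 and 82722 on the 3 arrays. Their median log2 ratios were 0.17 with phenylephrine, 0.42 with PAMH and 0.17 between the compounds. With phenylephrine 5 of the 9 were above 1 and 4 below, against 57.6% of all genes above 1. With PAMH 8 were above 1 and 1 below, against 61.1%. The summed signal of the 10 fibroblast and matrix markers went the other way, at 15647, 13414 and 11240, with medians of -0.46, -0.89 and -0.36. Of the 9 such markers with a ratio, 6 were at least 1.5-fold lower with PAMH, against 4.17% of all genes, and 1 with phenylephrine, against 4.54%. The 6 smooth muscle markers summed to 5567, 11871 and 9823. With phenylephrine 5 of them were above 1 and 1 below, and with PAMH 4 were above 1 and 2 below. The 3 endothelial markers summed to 101, 121 and 75.7, the 5 macrophage markers to 246, 311 and 367, and the 2 erythroid markers to 99.8, 177 and 72.8. All 3 endothelial markers, 3 of the macrophage markers and the erythroid marker Hbb lay below the floor on every array. The part of these marker differences in the complex I ratios was not tested. In RNA from whole cultures, fewer cells of a type and less RNA per cell cannot be told apart. After quantile normalization the cardiac marker medians were -0.18, -0.13 and 0.09, while those of the fibroblast and matrix markers were -0.56, -0.95 and -0.39.

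**Figure D5:**
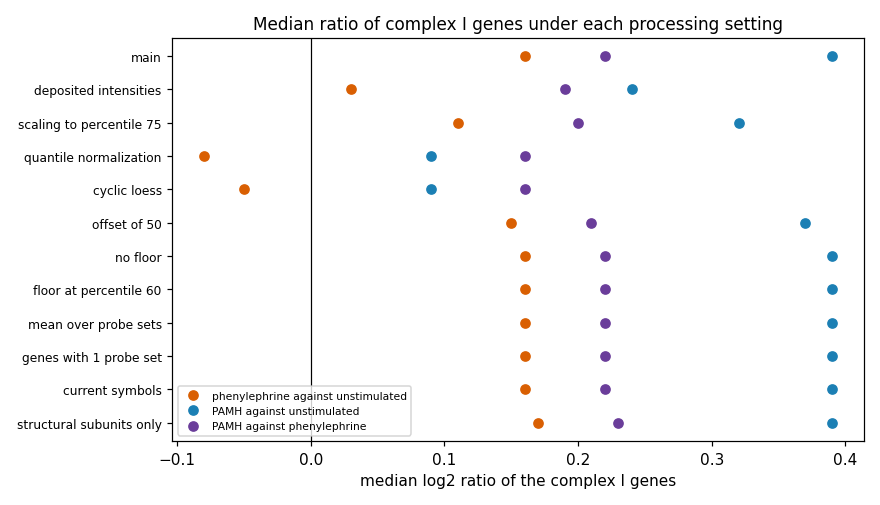
Median log2 ratio of the measured Nduf genes (horizontal axis) in each comparison under the main setting and 11 alternatives. With phenylephrine the median crosses 0 after quantile normalization (-0.08) and cyclic loess (-0.05), with PAMH it drops to 0.09, and between the compounds it stays between 0.16 and 0.23.

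The start regions of their genes were searched for sequence motifs of factors known for nuclear genes of respiration. RefSeq windows of 300 bases, 250 before and 50 after a start given for the gene in the GRCr8 build, were found for 39 of the 41 genes. For some genes, Ndufa9 and Ndufs7 among them, that start is not the outer end of the gene in RefSeq's gene table. Both strands were read, and no match overlapped that of another motif. The YY1 motif AAGATGGCG was in 8 of 39 windows (20.5%), against 4.83% of 5422 genes measured on these arrays and 1.99% of all 27457 genes. The NRF1 motif TGCGCANGC was in 8 of 39 (20.5%), against 10.2% and 4.36%. For the ETS motif CCGGAAG the shares were 20.5%, 20.8% and 9.63%, for the estrogen-related receptor motif AAGGTCA 7.69%, 2.71% and 4.83%, for CCAAT 33.3%, 39.7% and 39.6%, and for the Sp1 motif GGGCGG 46.2%, 67.5% and 36.0%. These shares describe letters in a window and not bound sites.

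All 8 matches of the YY1 motif read in the direction of the gene and began 3 to 27 bases after the window's start point, counting the first base after it as 1. The motif holds the letters ATG, with which translation begins, and whether a match is the start of translation was not examined. The genes were Ndufa2, Ndufa6, Ndufa9, Ndufaf8, Ndufb8, Ndufs4, Ndufs6 and Ndufs7. They included Ndufs4, the lowest gene with PAMH, and Ndufb8, one of the highest. Ndufs4 alone of them was lower on the PAMH array than on the unstimulated one. The others had log2 ratios from 0.13 for Ndufa9 to 0.66 for Ndufb8. Below are 4 of the genes with the motif, 5′ to 3′ on the strand of the gene, with the motif in capitals. They are Ndufs4 and the genes with the motif that had the highest ratios with PAMH. Ndufs4 (-0.51) lies at chr2:47794893-47794919, minus strand, Ndufa6 (0.47) at chr7:115750285-115750311, minus strand, Ndufaf8 (0.53) at chr10:105879901-105879927, plus strand, and Ndufb8 (0.66) at chr1:253362898-253362924, minus strand.
Ndufs4: gcccacaggAAGATGGCGgcggtctca
Ndufa6: ttccttagcAAGATGGCGgccgcggcc
Ndufaf8: gcagggcccAAGATGGCGgcgcccaca
Ndufb8: gagaaggtgAAGATGGCGgcgtcccgg
In each of the 4 the motif was followed by the letters gc. The bases farther out differed.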

How the data were processed

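The deposited table holds 1 signal intensity per probe set and array, on a linear scale, for 15923 probe sets, 57 of them controls. For the software and scaling behind them, no record was read (not given in the sources used here). Medians of the deposited values were 118, 108 and 106, and each array was multiplied by 1 factor (0.937 unstimulated, 1.02 phenylephrine, 1.04 PAMH) to equal medians over non-control probe sets. Genes were named from the platform annotation (12783 probe sets with 1 symbol), members by its symbols and all other genes with symbols updated through RefSeq's GRCr8 gene table (12748 found). A gene was represented by its brightest probe set by mean deposited intensity. The floor was percentile 40 of the scaled values, ratios were log2 without an offset, and 1.5-fold was the threshold for counts. Deciles of signal were cut over genes measured on all arrays. Members and lists were chosen with earlier results of these data known. Every member is named. Array signals are printed for core subunits, the extremes of each subfamily, members past 1.5-fold and those with a further probe set. Other pathway genes are the highest and lowest of their list with PAMH, Yy1, which lay below the floor, and the pseudogene Cox6c-ps1. Alternatives changed the scaling, floor, offset, probe set rule or member rule. The scripts were tested on simulated data. Tools were Python 3.11.15, numpy 2.4.6, pandas 2.3.3, matplotlib 3.10.9, R 4.3.3 and limma 3.58.1 (quantile normalization and cyclic loess).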

Additional observations from a re-analysis of the deposited data

How the results depend on the processing

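With 1 array per group no array could be left out, and 11 alternatives were run. With phenylephrine, the median log2 ratio of the Nduf genes was 0.03 on the deposited intensities, and it reversed under quantile normalization (-0.08) and cyclic loess (-0.05). Its distance from the median of all genes turned to -0.06 and -0.04 in those 2 settings. The count at least 1.5-fold higher, 1 otherwise (Ndufaf4), was 0 in several settings (0 with deposited values, percentile 75 scaling, quantile normalization, cyclic loess or an offset of 50, and among structural subunits only). With PAMH, the median was 0.24 on the deposited intensities and 0.09 after quantile normalization and cyclic loess, and its distance from all genes was 0.09 in both. The count at least 1.5-fold higher was 3 on the deposited intensities and 1 in both other settings. The count lower was 1 on the deposited intensities (Ndufs4) and 1 without a floor (Ndufa4l2, which gave 1 with phenylephrine too). Between the compounds, the count higher was 0 with deposited intensities, quantile normalization and cyclic loess, while the median and its distance from all genes kept their direction in all 11. Why quantile normalization and cyclic loess differ from scaling by 1 factor was not tested. Of 120 ratios of single genes, 44 moved by more than the SD between probe sets after quantile normalization and 28 after cyclic loess; none did in the 7 other settings that apply to single genes. The floor left Ndufa4l2 without a ratio.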

Other observations

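The array holds 2 further probe sets that the annotation assigns to several genes, among them a subunit gene of complex I. The probe set shared by Ndufs5 and its pseudogene Ndufs5-ps2 had scaled signals of 2720, 2719 and 3141 on the unstimulated, phenylephrine and PAMH arrays. The probe set shared by Ndufa10 and Ndufa10l1 had 1317, 1251 and 1324. Both were higher on the PAMH array than on the phenylephrine array, by log2 ratios of 0.21 and 0.08, and neither can be assigned to 1 gene.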
